A study of Mus musculus with 11 samples.

Results

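The heat shock proteins and their cochaperones were taken as every gene whose row carries a single symbol that starts with Hspa, Hspb, Hspd, Hspe, Hsph, Hsp90, Dnaja, Dnajb, Dnajc or Bag and goes on with a digit, together with Hsf1, Hsf2 and Hmox1. The rule found 75 of 20404 genes, measured by 168 probe sets, and all 75 entered the tests. Hspa8, Hspa4l, Dnajc1, Dnajb14 and Hsf2 share their rows with another symbol and are not reported, and Hspbap1, in which a letter follows the stem, was not taken. In all, 30 members rest on 1 probe set and 45 on 2 or more.

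The cells were CD4 T cells sorted from the spleens of female C57BL/6 mice, with total RNA of each biological replicate put on its own array (11 arrays, 30 ng of RNA each, sort purity of 92% to 99%). Unmanipulated wild-type mice aged 8 weeks gave WT naive (3 arrays) and WT IMP (2 arrays), sorted as TCRβ+CD4+ cells that were CD44lo for naive and CD44hi for IMP, the innate memory phenotype. MW naive (3 arrays) came from lethally irradiated wild-type hosts given MHCII-/- marrow and used 8 weeks after the transplant, sorted as CD45.2+ naive cells. WM IMP (3 arrays) came from lethally irradiated MHCII-/- hosts given CD45.1+ wild-type marrow and used after the same interval, sorted as CD45.1+ IMP cells. MHC class II presents antigen to CD4 T cells. In MW mice it was therefore left on host cells such as the thymic epithelium, and in WM mice on cells that grew from the marrow. The labels disagree on the CD45 allele of the MW hosts. If it was CD45.2 the gate would not separate host from donor cells. Chimera and cell type change together between WM IMP and MW naive, which come from different kinds of chimera.

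Hsp70 proteins bind unfolded stretches of other proteins in a cycle driven by ATP. DnaJ proteins deliver the substrate and start the hydrolysis, and BAG proteins and the Hsp110 family release the ADP. Hsp90 acts later on kinases and receptors, the Hspd1 and Hspe1 chaperonin folds proteins in the mitochondrial matrix, and small heat shock proteins hold unfolded proteins without ATP. Hsf1 is the transcription factor that raises the cytosolic members after heat or other protein damage, while the members in the endoplasmic reticulum (ER) are raised by the unfolded protein response. T cells are known to raise chaperones when they are activated and begin to make and secrete more protein.

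Each value is on the log2 scale and relative to WT naive, whose 3 arrays average 0 for every gene. The values thus give no absolute level, and levels of different genes cannot be compared. A gene's value is the mean of its probe sets. Differences between groups are given with their standard error from limma, and a gene was called at a Benjamini-Hochberg adjusted p under 0.05 over all 20404 genes. In these bulk samples fewer cells of a type and less RNA per cell cannot be told apart. The small number of arrays, 2 for WT IMP, limits the precision.

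Cd44, which encodes a protein the cells were sorted on, followed the labels: it was higher in IMP than in naive cells by 2.01 ± 0.17 (SE, log2 scale) in unmanipulated mice and 1.85 ± 0.16 in chimeras. None of 7 measured CD4 T cell markers was called between IMP and naive cells with limma (1 had an unadjusted p under 0.05 in unmanipulated mice and 0 in chimeras), while Cd5 was lower in MW naive than in WT naive (-1.06 ± 0.23, limma adjusted p = 0.0368). Since the values hold no level, the absence of a marker cannot be read from them. The arrays also differed in their controls. The spiked poly-A controls were 2.29 to 4.44 above the WT naive mean in 1 array of each group and at most -0.91 in the others. The hybridization controls lay at 1.01 to 1.44 in MW naive and 1.62 to 3.17 in WM IMP, against -0.46 to 0.56 elsewhere. The 5′ minus 3′ difference of the Gapdh control probe sets, which falls when transcripts are read short of their 5′ end, was -0.42 to 0.41 in WT naive. It was -4.22, -3.50 and -1.38 in MW naive 1 to 3, -4.23 and -0.27 in WT IMP 1 and 2, and 0.56, -2.71 and -1.69 in WM IMP 1 to 3.

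**Figure D1:**
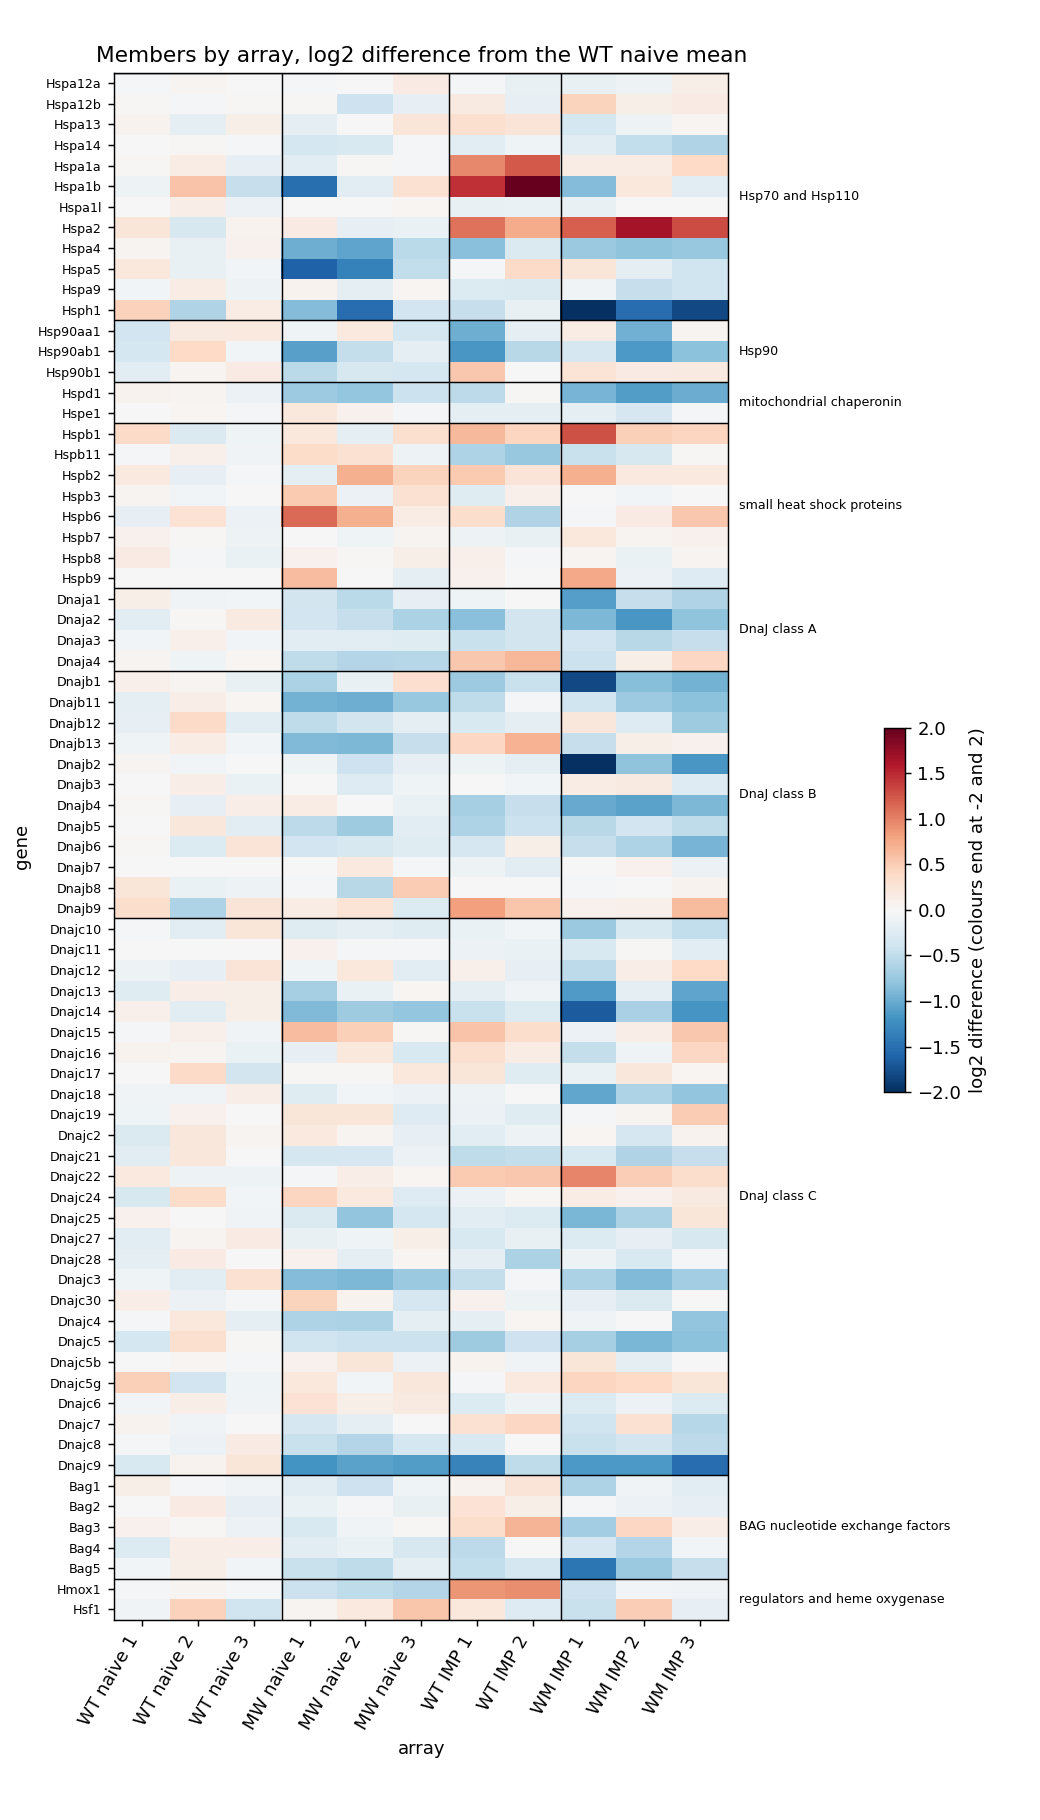
Each of the 75 members (rows, grouped by role) in each of the 11 arrays (columns), coloured by its log2 difference from the WT naive mean. The red cells of Hspa1a, Hspa1b and Hmox1 in WT IMP and the red row of Hspa2 in both IMP groups stand out, as do the blue cells of Hsph1 in WM IMP, of Dnajb2 and Dnajb1 in WM IMP 1 and of Hspa5 in MW naive 1 and 2.

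In unmanipulated mice, IMP cells had more RNA of the stress-inducible Hsp70 genes Hspa1a and Hspa1b, of Hmox1 and of the testis-enriched Hsp70 gene Hspa2 than naive cells, and less of Dnajb4, Dnajc9 and Hspb11. These 7 of 75 members (9.33%) were called, 4 higher and 3 lower, where 7.66% of all genes were called, 5.31% higher and 2.35% lower. The median log2 difference was -0.11 over the members and -0.01 over all genes. The share of called members was thus near that of all genes.

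Hspa1a and Hspa1b encode nearly the same cytosolic Hsp70 protein and are among the most strongly heat-inducible genes. Hspa1a, read by 1 probe set, lay at 0.96 and 1.23 in the WT IMP arrays, against 0.02, 0.15 and -0.16 in WT naive, with no overlap. The difference was 1.10 ± 0.15 (2.14-fold, limma adjusted p = 0.000907). Hspa1b lay at 1.45 and 2.38 in WT IMP against -0.11, 0.57 and -0.46 in WT naive, again with no overlap. Its difference was 1.92 ± 0.51 (3.77-fold, limma adjusted p = 0.0435), and its 3 probe sets gave 1.89, 1.87 and 1.99. The call was lost in the authors' gene table (1.76, limma adjusted p = 0.103), with the Gapdh difference as a covariate (2.16, limma adjusted p = 0.0734), and with the hybridization level as a covariate or the poly-A level as a block (1.87 in both, limma adjusted p = 0.0654 and 0.0638). Probes for these near-identical copies can bind the transcripts of both, so how the increase divides between them is uncertain. Here and below, separation of the arrays of a called member adds nothing to its call. The share of all genes whose arrays were separated was not counted.

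The probe sets of both genes read higher in WT IMP than in WT naive. The 250 bases before the start of each gene are therefore shown (RefSeq, GRCm38.p6, mouse chromosome 17, minus strand). They match at 247 of 250 positions (98.8%). Capitals mark a match to the heat shock element of 2 inverted units, GAANNTTC or TTCNNGAA, searched on both strands with overlaps counted.
Hspa1a, chr17:34972157-34972406: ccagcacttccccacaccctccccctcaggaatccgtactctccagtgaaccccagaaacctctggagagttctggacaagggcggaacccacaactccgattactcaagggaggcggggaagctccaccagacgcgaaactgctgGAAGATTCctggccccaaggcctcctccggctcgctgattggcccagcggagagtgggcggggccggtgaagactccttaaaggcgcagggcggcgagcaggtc
Hspa1b, chr17:34959239-34959488: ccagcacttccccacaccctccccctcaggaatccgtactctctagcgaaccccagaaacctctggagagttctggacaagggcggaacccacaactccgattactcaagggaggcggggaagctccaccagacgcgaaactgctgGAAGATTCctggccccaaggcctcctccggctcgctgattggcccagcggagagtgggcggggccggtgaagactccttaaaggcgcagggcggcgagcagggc
Such a match is common: 15.1% of 32851 RefSeq promoters, each of 250 bases before and 50 after the start, hold it, as do 17 of the 59 members with a promoter in that table. The stricter form of 3 units, in which GAA and TTC alternate with 2 bases between neighbours, stood in 0.603% of promoters and in those of Dnajb6, Hspd1, Hspe1 and Hsph1. None of these 4 was called in any comparison.

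The other genes of a list that Hsf1 is known to induce did not follow Hspa1a and Hspa1b in passing the test. That list is cytosolic apart from the mitochondrial pair Hspd1 and Hspe1. Of 11 measured genes of that list, 2 were called higher and none lower, and their median log2 difference was -0.18. Dnajb1, the main DnaJ partner of the inducible Hsp70, had a difference of -0.59 ± 0.31 (limma adjusted p = 0.383). Hsph1, an Hsp110 protein that recharges Hsp70, had -0.31 ± 0.35, with a 95% interval of -1.07 to 0.45. The cytosolic Hsp90 genes Hsp90aa1 and Hsp90ab1 had -0.58 ± 0.34 and -0.86 ± 0.32 (limma adjusted p = 0.479 and 0.164), with WT IMP 1 the lowest array of each at -0.98 and -1.16. Bag3, a BAG protein that links Hsp70 to autophagy, was at 0.35 and 0.69 in WT IMP, above all 3 WT naive arrays, with a difference of 0.52 ± 0.27 that did not pass (limma adjusted p = 0.375). Hsf1 itself differed by -0.02 ± 0.31 (95% interval -0.70 to 0.65).

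**Figure D2:**
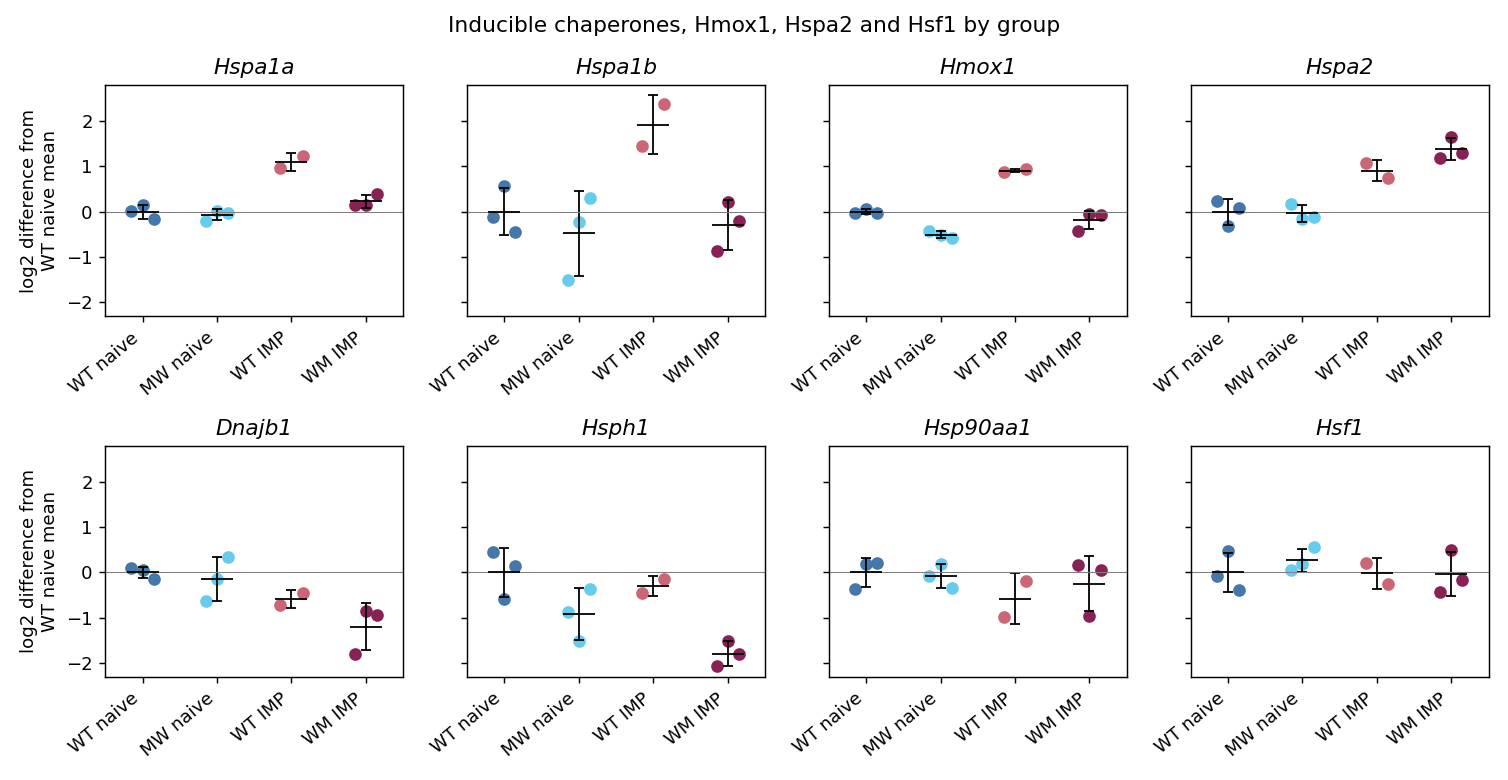
Log2 difference from the WT naive mean (y axis) for 8 genes in the 4 groups (x axis). Points are arrays, horizontal bars are group means and error bars are SD. The 2 WT IMP arrays lie above every other array for Hspa1a, Hspa1b and Hmox1, both IMP groups lie above both naive groups for Hspa2, and Hsf1 overlaps throughout.

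Hmox1 encodes heme oxygenase, which breaks down heme and is induced by oxidative stress as well as heat in rodents. It lay at 0.88 and 0.94 in WT IMP against -0.03, 0.06 and -0.03 in WT naive, without overlap. The difference was 0.91 ± 0.14 (1.88-fold, limma adjusted p = 0.00179). None of 13 measured genes of the NRF2, heme and iron list was called in this comparison with limma, and 2 had an unadjusted p under 0.05. Hmox1 is also high in the spleen's red pulp macrophages, which clear old red cells. Of 14 macrophage and monocyte markers 7 were called higher in WT IMP than in WT naive, among them Spic, a transcription factor of those macrophages (0.90 ± 0.16). Their mean log2 difference over the list was 1.32 to 1.42 in WT IMP and -0.14 to 0.22 in WT naive, and 7 of 9 dendritic cell markers were called higher too. Of 10 proliferation markers 4 were called higher, among them Mki67 (3.49 ± 0.33), with a mean over the list of 1.17 to 1.44 in WT IMP and -0.13 to 0.16 in WT naive. The part of these cells in the Hmox1 result and in the other calls of this comparison was not tested.

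Hspa2 was at 1.08 and 0.74 in WT IMP against 0.24, -0.32 and 0.08 in WT naive. Its difference was 0.91 ± 0.21 (1.88-fold, limma adjusted p = 0.0193). Among the genes that fell, Dnajc9, which carries histones with Hsp70, was at -1.34 and -0.50 (difference -0.92 ± 0.24). Dnajb4, a cytosolic partner of Hsp70, was at -0.66 and -0.46 (-0.56 ± 0.15), and Hspb11, a subunit of the intraflagellar transport complex also called Ift25, at -0.62 and -0.75 (-0.69 ± 0.18). All 3 lay below every WT naive array, with limma adjusted p of 0.0395, 0.0396 and 0.0405. They were called on the same values, so the separation adds nothing to the calls. WT IMP 1, the lower array for Dnajc9, is the one with the Gapdh difference of -4.23. With that difference as a covariate the log2 difference of Dnajc9 was -0.68 (limma adjusted p = 0.194). The 2 probe sets of Hspb11 were unlike in WT IMP, with 1453016_at at -1.04 and -1.31 and 1425935_at at -0.20 in both arrays.

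Each of the 11 arrays was also left out in turn. Of the 7 calls of this comparison, those of Hspa1a and Hmox1 held whichever array was left out. The Hspa1b call ended without WT naive 1 or 3, MW naive 2, WM IMP 3 or either WT IMP array (1.45 to 2.38), that of Hspa2 without WT naive 2 or 3 or WT IMP 1 (0.74 to 0.95), that of Dnajb4 without WT naive 1 or 3, MW naive 2 or either WT IMP array (-0.66 to -0.46), that of Dnajc9 without WT naive 2 or 3, any 1 MW naive array or WT IMP 1 (-0.92 to -0.50), and that of Hspb11 without any 1 WT naive array, MW naive 2 or either WT IMP array (-0.76 to -0.62). The call of Hspa2 was lost with the Gapdh covariate as well, that of Dnajb4 with the Gapdh or hybridization covariate or the median of probe sets, and that of Hspb11 with the hybridization covariate or the poly-A block.

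Among other chaperone genes outside the family, 14 were measured of a list of Hsp90 and Hsp70 cochaperones. The list also holds Serpinh1, the collagen chaperone, and Trap1, the mitochondrial Hsp90, which are chaperones themselves. Serpinh1 was its 1 called gene (1.02 ± 0.14). Of 20 genes of the unfolded protein response 4 were called higher and none lower. These were its sensor Atf6 (1.37 ± 0.19), its transcription factor Xbp1 (1.28 ± 0.24), and Sdf2l1 (1.10 ± 0.25) and Creld2 (0.78 ± 0.13), which are ER proteins induced by that response. None of 8 ER members of the family was called with limma, 1 had an unadjusted p under 0.05, and Hspa5 had a difference of 0.18 ± 0.30. Xbp1 is also a plasma cell gene, and 4 of 8 plasma cell markers were called higher, Xbp1 among them (mean over the list 0.67 to 0.97 in WT IMP, -0.16 to 0.23 in WT naive). Their part in the increase was not tested.

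Between WM IMP and MW naive, Hspa2 was again higher, joined by the ER chaperones Hspa5 and Hsp90b1 and by Dnajb13 and Dnajc22, while Dnajb1, Dnajb2, Dnajb4, Dnajc6 and Dnajc18 were lower. That is 10 of 75 members (13.3%), 5 in each direction, where 13.1% of all genes were called, 6.46% higher and 6.61% lower. The median log2 difference was -0.07 over the members and -0.02 over all genes. The share of called members was thus near that of all genes. Markers of other cells were higher in WM IMP beside these members, with 5 of 9 dendritic cell, 4 of 8 B cell and 6 of 10 proliferation markers called. The mean over these lists was 1.44 to 2.51, 0.59 to 2.60 and 0.21 to 0.67 in WM IMP, in that order, against -0.21 to -0.06, -0.83 to 0.03 and -0.37 to -0.23 in MW naive. Their part in the members' differences was not tested.

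Hspa2 lay at 1.19, 1.66 and 1.30 in WM IMP and at 0.17, -0.16 and -0.13 in MW naive. The groups stand far apart, with a difference of 1.42 ± 0.18 (2.68-fold, limma adjusted p = 0.000336). Dnajb4 lay at -1.003, -1.06 and -0.89 in WM IMP against 0.15, -0.01 and -0.14 in MW naive, a difference of -0.99 ± 0.13 (1.98-fold lower, limma adjusted p = 0.000385). Of its 3 probe sets 2 fell (-1.44 and -1.32) and the other gave -0.20. These were the 2 members called between IMP and naive cells in both settings, 28.6% of the 7 called in unmanipulated mice and 20.0% of the 10 called here. In chimeras both calls held in each of 21 other fits, 11 of which leave out 1 array, with log2 differences of 1.24 to 1.69 for Hspa2 and -1.29 to -0.82 for Dnajb4. In unmanipulated mice the call of Hspa2 held in 16 of the 21 and that of Dnajb4 in 11.

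Dnajc18, a DnaJ protein with a membrane anchor, lay at -1.04, -0.61 and -0.79 in WM IMP against -0.24, -0.06 and -0.12 in MW naive. It fell by 0.68 ± 0.13 on the log2 scale (1.60-fold lower, limma adjusted p = 0.00634), and that call too held without any single array. Dnajb2, a cochaperone that hands Hsp70 clients to the proteasome, was at -2.42, -0.81 and -1.17 in WM IMP against -0.08, -0.42 and -0.16 in MW naive (difference -1.24 ± 0.32, limma adjusted p = 0.0236). Dnajb1 was at -1.80, -0.86 and -0.94 against -0.64, -0.14 and 0.34 (-1.05 ± 0.27, limma adjusted p = 0.0267). In the authors' gene table Dnajb1 had -0.59 and was not called (limma adjusted p = 0.102). For all 3 genes WM IMP 1 was the lowest array. That array also had the highest mean of the 8 B cell markers, 2.60 against 0.59 to 0.70 in the other WM IMP arrays, and the highest hybridization controls, 3.17. With the hybridization level as a covariate the log2 differences were -0.48 for Dnajc18, -0.54 for Dnajb2 and -0.76 for Dnajb1, none of them called. The part of B cells was not tested. Dnajc6, the clathrin-uncoating protein auxilin, fell by 0.42 ± 0.12 on the log2 scale, and the fall rests on 1 of its 4 probe sets, 1433596_at (-1.49 ± 0.20), while the others gave -0.23 to 0.10. With the median of probe sets Dnajc6 had -0.21 and was not called (limma adjusted p = 0.299), and in the authors' gene table it had -1.18.

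Hspa5, also called BiP, is the Hsp70 of the ER lumen, and Hsp90b1 is its Hsp90. Hspa5 was at 0.24, -0.18 and -0.40 in WM IMP against -1.62, -1.36 and -0.49 in MW naive, groups that do not overlap but come close at MW naive 3. The difference was 1.04 ± 0.27 (2.06-fold, limma adjusted p = 0.0266). Hsp90b1 was at 0.27, 0.17 and 0.19 against -0.54, -0.32 and -0.35, a difference of 0.61 ± 0.16 (limma adjusted p = 0.0257). Its 2 probe sets gave 0.15 and 1.07, and neither was called by itself. Dnajb13, known from the sperm tail, had a difference of 0.66 ± 0.18 and Dnajc22 one of 0.56 ± 0.16. The 2 probe sets of Dnajc22 gave 0.02 and 1.11, and its call held in 3 of the 21 other fits. In the authors' gene table its difference was 0.22 (limma adjusted p = 0.527), and with the hybridization level as a covariate it was 0.27 (limma adjusted p = 0.502). For Hspa5 and Hsp90b1 MW naive is the lower side, with WM IMP around the WT naive mean for Hspa5 and above every WT naive array for Hsp90b1. The ER DnaJ gene Dnajb11 was low in WM IMP too, at -0.39, -0.73 and -0.82, and so was Dnajc3, at -0.63, -0.88 and -0.70, all below every WT naive array. The mean over the 8 ER members was -0.28 to -0.16 in WM IMP, between MW naive (-0.59 to -0.35) and WT naive (-0.10 to 0.10).

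In the wider ER list, Calr, Atf6, Sdf2l1 and Creld2 were called higher (0.94 ± 0.19, 0.96 ± 0.17, 0.74 ± 0.22 and 0.58 ± 0.12), and Ppp1r15a and Edem1 lower (-0.82 ± 0.16 and -0.56 ± 0.12), 6 of 20 genes. Plasma cell markers were called higher for 3 of 8, with a mean of 0.88 to 0.99 in WM IMP and -0.40 to 0.14 in MW naive, and their part was not tested. TRiC is the ring chaperonin of the cytosol that folds actin and tubulin. Of its 8 subunits 4 were called lower and none higher: Cct5 (-0.72 ± 0.14), Cct6a (-0.63 ± 0.18), Cct2 (-0.50 ± 0.15) and Cct8 (-0.45 ± 0.13). The Hsp90 activator Ahsa1 and the mitochondrial Hsp90 Trap1 were called lower too (-0.57 ± 0.14 and -0.55 ± 0.16), 2 of 14 genes of the cochaperone list. Of the NRF2, heme and iron list, only the iron exporter Slc40a1 was called (1.02 ± 0.23). Hmox1 had a difference of 0.32 ± 0.12 (limma adjusted p = 0.122), beside 6 of 14 macrophage markers called higher.

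The other calls of this comparison depended on single arrays. They ended for Hspa5 without MW naive 1 or 2 or WM IMP 1 (0.81 to 0.95), for Hsp90b1 without any 1 MW naive array or WM IMP 1 or 3 (0.54 to 0.65), for Dnajb1 without MW naive 2 or 3 or WM IMP 1 (-1.05 to -0.75), for Dnajb2 without MW naive 1 or 3 (-1.21 to -1.17), for Dnajb13 without WT naive 1 or 3, MW naive 1 or 2, or WM IMP 2 or 3 (0.57 to 0.66), for Dnajc6 without any 1 array other than WT naive 2 and WM IMP 2 (-0.45 to -0.37), and for Dnajc22 without any 1 array other than WM IMP 3 (0.38 to 0.62). Each of these calls was also lost with the hybridization covariate, and all but that of Hsp90b1 with the Gapdh covariate.

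**Figure D3:**
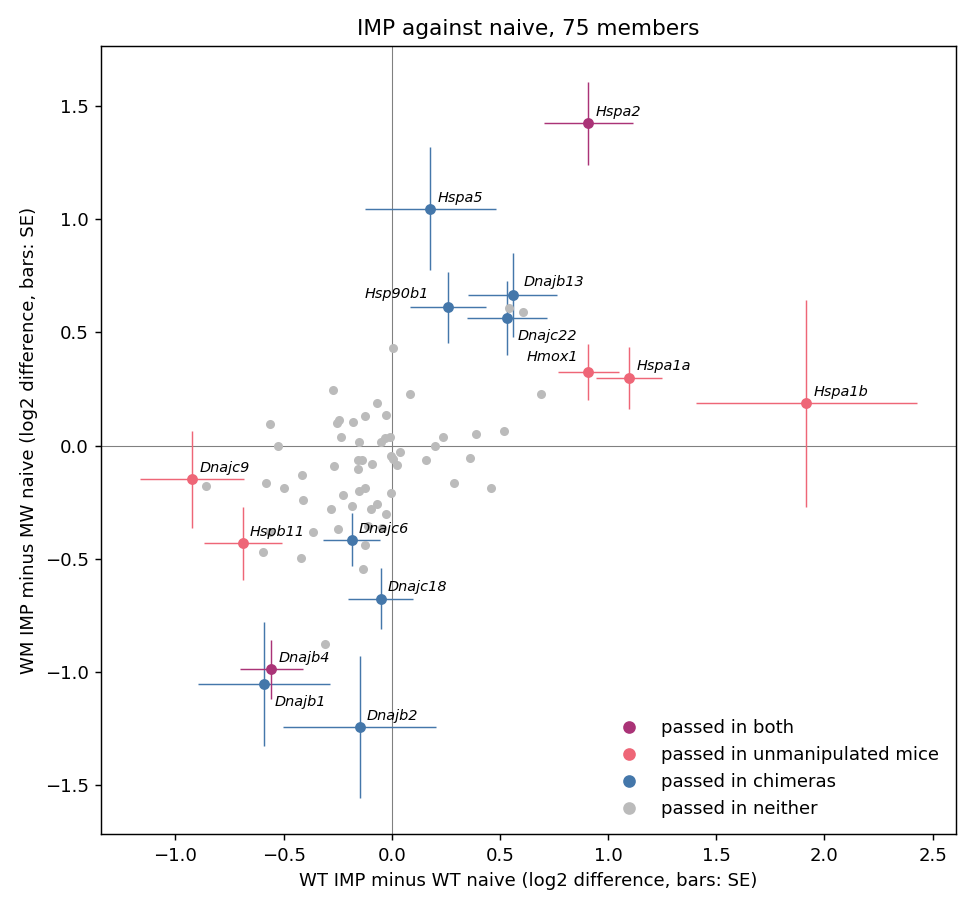
Log2 difference between IMP and naive cells for the 75 members, in unmanipulated mice (x axis) and in chimeras (y axis). Bars are standard errors on the members called in either setting. Hspa2 lies far to the upper right and Dnajb4 to the lower left, while Hspa1b lies at 1.92 on the x axis and 0.19 on the y axis.

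The 2 settings share no array, and over the 75 members the IMP differences correlated with r = 0.55 and rho = 0.59, with the same sign in 54 of 75. Over all 20404 genes r was 0.78 and rho 0.52. These are descriptions across genes, which are not independent of each other. The difference between the settings was tested as the interaction term. With limma no member was called, where 0.0588% of all genes were, and 9 members had an unadjusted p under 0.05. The smallest was that of Hspa1a, with an interaction of -0.80 ± 0.21 (limma adjusted p = 0.332). For Hspa1b the interaction was -1.73 ± 0.68, with a 95% interval of -3.23 to -0.22 and an adjusted p of 0.593, and for Hmox1 it was -0.58 ± 0.19 (adjusted p = 0.483).

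The comparison of naive cells between MW chimeras and unmanipulated mice gave 5 called members, all lower in MW naive: the ER chaperones Hspa5, Dnajb11 and Dnajc3, with Dnajc9 and Hspa4. They are 6.67% of the members, where 2.72% of all genes were called, 0.706% higher and 2.02% lower. The median log2 difference was -0.11 over the members and 0.05 over all genes. Of 8 ER members 3 were called lower and none higher. Markers of other cells lay lower in MW naive beside them. Of 14 macrophage and monocyte markers 13 had a difference below 0 and 8 an unadjusted p under 0.05, with Lyz2, the lysozyme of these cells, called (-1.92 ± 0.23), and the mean over the list was -0.77 to -0.44 in MW naive against -0.14 to 0.22 in WT naive. All 10 proliferation markers had a difference below 0, none called with limma and 3 with an unadjusted p under 0.05, and their mean was -0.37 to -0.23 against -0.13 to 0.16. The part of either list in the lower members was not tested.

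Dnajb11 is the DnaJ partner of Hspa5 in the ER lumen, and Dnajc3 brings Hspa5 to newly made proteins and also restrains the kinase PERK. Dnajb11 lay at -0.95, -0.97 and -0.76 in MW naive against -0.18, 0.14 and 0.04 in WT naive, well apart, with a difference of -0.89 ± 0.16 (1.86-fold lower, limma adjusted p = 0.02). Hspa5, at -1.62, -1.36 and -0.49 against 0.22, -0.16 and -0.06, had a difference of -1.16 ± 0.27 (2.23-fold lower, limma adjusted p = 0.0497). Dnajc3, at -0.87, -0.90 and -0.74 against -0.08, -0.22 and 0.30, had one of -0.84 ± 0.16 (limma adjusted p = 0.0261). Hsp90b1 lay at -0.54, -0.32 and -0.35, below every WT naive array, but its difference of -0.40 ± 0.16 did not pass (limma adjusted p = 0.226). Dnajb9, another ER DnaJ gene of the unfolded protein response, differed by 0.05 ± 0.26.

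The promoters of these ER members are shown because the ER stress element, the site through which the unfolded protein response acts, can be seen in them (RefSeq, GRCm38.p6, on the gene's strand). The first 3 are the 250 bases before the start. Capitals mark that element, CCAAT and CCACG with 9 bases between them, on either strand. For Dnajb11 the 30 bases around its match are shown, which begins 7 bases after the start, and capitals mark the related element of ATTGG and CCACG with 1 base between them.
Hspa5, chr2:34771840-34772089, plus strand: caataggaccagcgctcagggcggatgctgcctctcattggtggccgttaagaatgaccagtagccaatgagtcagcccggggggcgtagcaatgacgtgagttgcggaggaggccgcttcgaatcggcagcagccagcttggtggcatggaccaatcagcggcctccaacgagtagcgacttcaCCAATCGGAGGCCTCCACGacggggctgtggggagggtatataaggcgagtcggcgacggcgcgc
Hsp90b1, chr10:86705445-86705694, minus strand: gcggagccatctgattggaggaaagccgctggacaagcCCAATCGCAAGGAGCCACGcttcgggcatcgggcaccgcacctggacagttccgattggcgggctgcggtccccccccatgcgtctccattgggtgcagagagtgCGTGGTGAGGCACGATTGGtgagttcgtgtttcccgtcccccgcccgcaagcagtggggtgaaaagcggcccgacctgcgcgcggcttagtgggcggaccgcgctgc
Dnajc3, chr14:118937682-118937931, plus strand: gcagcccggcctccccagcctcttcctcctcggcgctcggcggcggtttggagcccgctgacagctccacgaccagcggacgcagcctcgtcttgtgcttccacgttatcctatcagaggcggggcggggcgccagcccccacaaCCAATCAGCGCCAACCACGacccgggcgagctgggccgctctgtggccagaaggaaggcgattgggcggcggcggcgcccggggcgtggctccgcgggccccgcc
Dnajb11, chr16:22857843-22857872, plus strand: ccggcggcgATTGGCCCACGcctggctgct
The first element stood in 39 of 32851 RefSeq promoters (0.119%), and among the 59 matched members in those of Hspa5, Hsp90b1 (2 matches) and Dnajc3. The second stood in 12 promoters (0.0365%), and among the members in that of Dnajb11. A match describes the sequence and does not show that a factor was bound in these cells.

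Of 20 further genes of the unfolded protein response 4 were called lower and none higher in MW naive, all folding helpers of the ER. P4hb, which forms disulfide bonds, was at -2.45, -2.83 and -1.20 in MW naive, a difference of -2.16 ± 0.38. Pdia3, of the same enzyme family, had -1.73 ± 0.27, the calcium-binding chaperone Calr -1.59 ± 0.19 and Pdia6 -0.57 ± 0.12, with limma adjusted p of 0.0176, 0.00852, 0.00299 and 0.029 in that order. The mean over the list was -0.69, -0.58 and -0.46 in the 3 MW naive arrays and -0.08 to 0.06 in WT naive. Outside the ER, the Hsp90 cochaperone Cdc37, which loads kinases, was lower (-0.82 ± 0.19) and Fkbp5, which slows steroid receptors, was higher (0.73 ± 0.17). They were 2 of 14 genes of the cochaperone list.

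**Figure D4:**
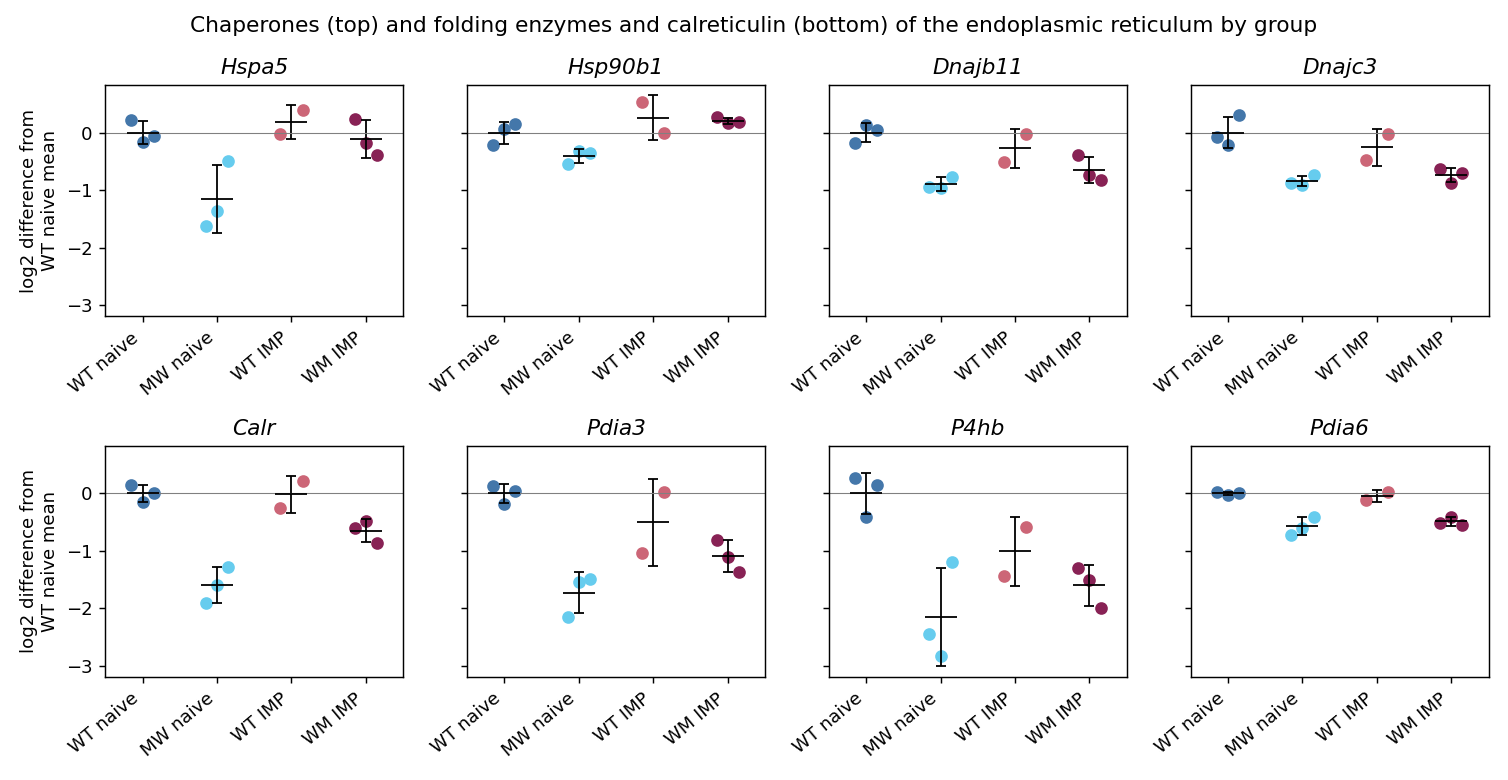
Log2 difference from the WT naive mean (y axis) for 4 ER members (top) and 4 ER genes outside the family (bottom) in the 4 groups (x axis). Points are arrays, horizontal bars group means and error bars SD. All 3 MW naive arrays lie below all 3 WT naive arrays for each of the 8 genes. All but Hsp90b1 were called lower in that comparison, so their separation adds nothing to the calls. Dnajb9, an ER member that did not fall, is not drawn. The share of all genes separated in this way was not counted.

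Single probe sets of these members disagreed. Hspa5 had 2 probe sets that fell, 1416064_a_at by 1.82 and 1427464_s_at by 2.29 on the log2 scale (limma adjusted p = 0.0176 and 0.0149 over probe sets), and another, 1447824_x_at, at 0.64 ± 0.22. For Hspa4, an Hsp110 protein of the cytosol, the gene lay at -0.98, -1.06 and -0.55 in MW naive (difference -0.86 ± 0.17, limma adjusted p = 0.0266), and the fall rests on 1 of 4 probe sets. That probe set, 1416147_at, was at -3.29, -3.40 and -1.68 in MW naive and at -2.60 and -0.71 in WT IMP, while the other 3 gave -0.40 to 0.01 between the naive groups. Dnajc3 likewise had 1 probe set of 5 that was called, 1419163_s_at, at -3.21, -3.21 and -2.01 in MW naive and -2.19 and -0.48 in WT IMP. The other 4 gave -0.88 to 0.28.

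The arrays in which these 2 probe sets were lowest, MW naive 1 and 2, with WT IMP 1 below WT IMP 2, also had Gapdh 5′ minus 3′ differences of -4.22, -3.50 and -4.23. In WM IMP 1 to 3, with Gapdh differences of 0.56, -2.71 and -1.69, the probe set of Hspa4 was at -1.85, -2.27 and -2.15 and that of Dnajc3 at -2.45, -2.80 and -2.38. The 5′ minus 3′ difference of the actin controls was -0.89, -1.89 and -2.42 in WM IMP 1 to 3. It was -1.33, -0.84 and -0.82 in MW naive, -1.22 and -0.12 in WT IMP, and -0.23, -0.12 and 0.35 in WT naive. The part of the actin difference was not tested. With the Gapdh difference as a covariate none of the 5 calls of this comparison remained, and the log2 differences were -0.58 for Hspa5, -0.58 for Dnajb11, -0.55 for Dnajc3, -0.80 for Dnajc9 and -0.52 for Hspa4 (limma adjusted p of 0.283 to 0.419). The part of the Gapdh difference in these results was not tested beyond that fit. In the authors' gene table Hspa4 and Dnajc3 had -0.37 and -0.36 and were not called, while Hspa5, Dnajb11 and Dnajc9 were. With the hybridization level as a covariate Dnajc3, Dnajc9 and Hspa4 were not called (limma adjusted p = 0.12, 0.0673 and 0.0951), while Hspa5 and Dnajb11 were.

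**Figure D5:**
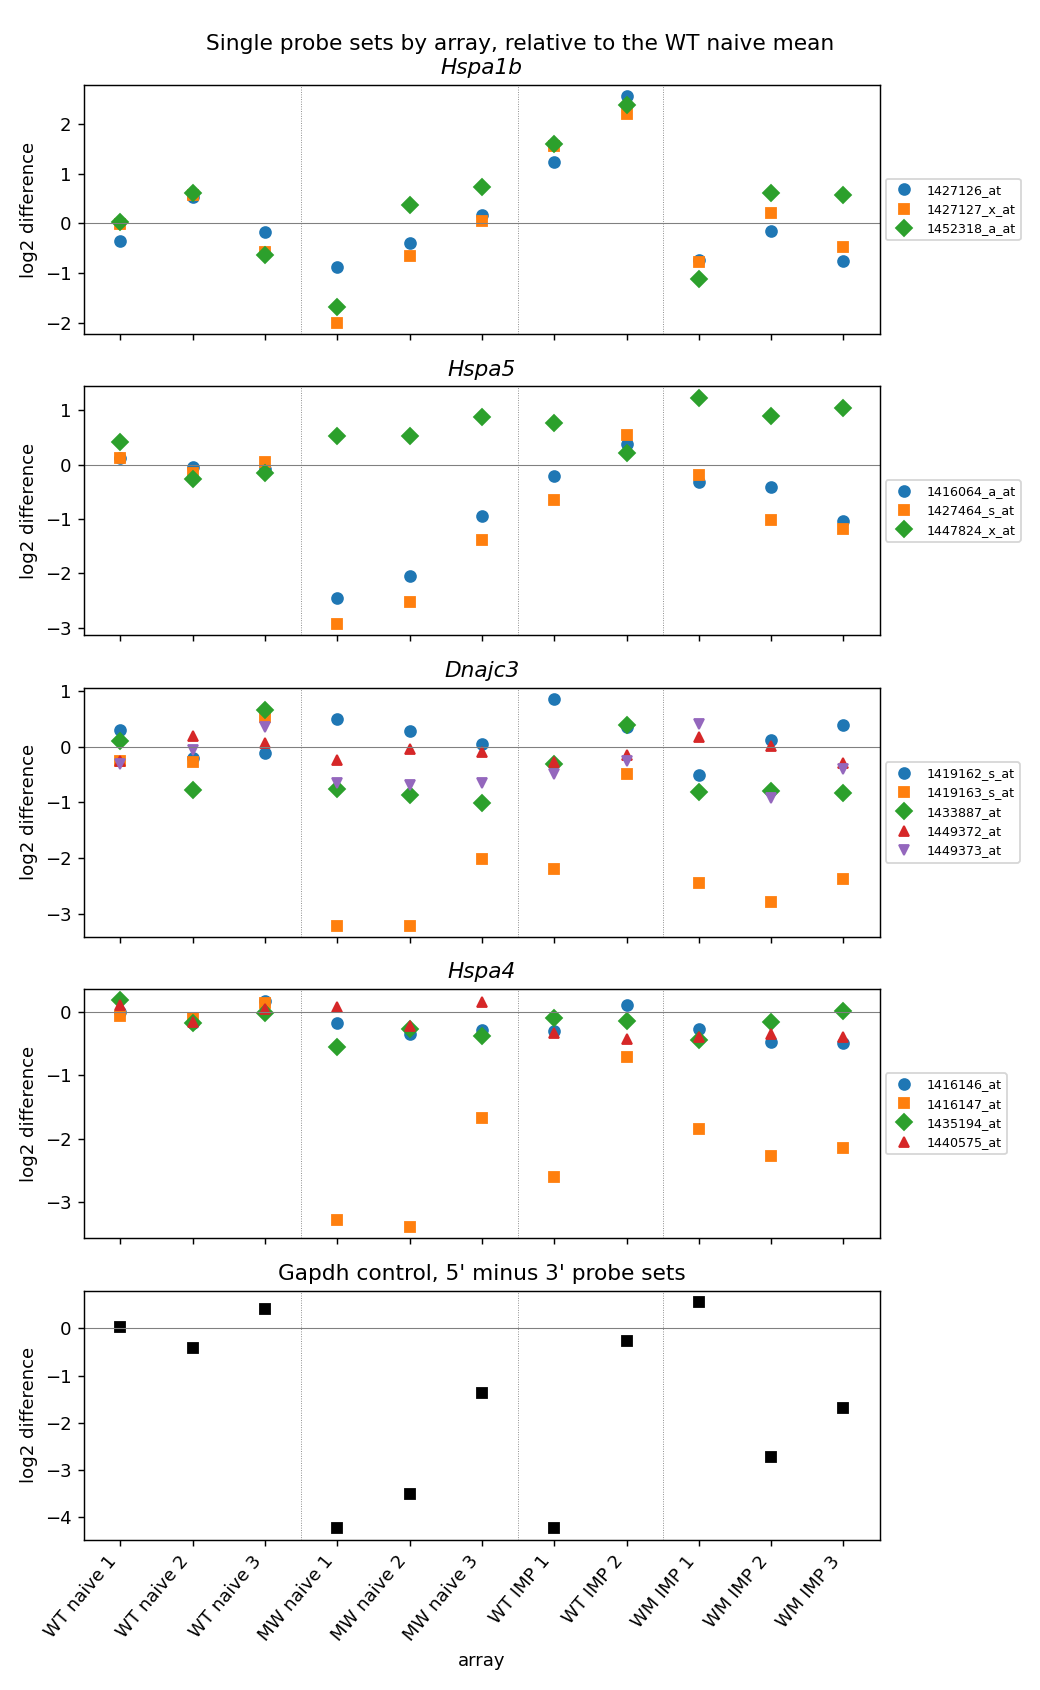
Log2 difference from the WT naive mean (y axes) of every probe set of Hspa1b, Hspa5, Dnajc3 and Hspa4, and the Gapdh 5′ minus 3′ control, in the 11 arrays (x axis). The 3 probe sets of Hspa1b move together, whereas 1 probe set each of Dnajc3 and Hspa4 lies at -3.40 to -3.21 in MW naive 1 and 2 and the others there at -0.86 to 0.51.

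Dnajc9 had 1 probe set and lay at -1.19, -1.07 and -1.11 in MW naive against -0.31, 0.06 and 0.24 in WT naive (difference -1.12 ± 0.22, 2.18-fold lower, limma adjusted p = 0.0241). It was at -1.14, -1.14 and -1.53 in WM IMP and -1.34 and -0.50 in WT IMP, so WT naive was the highest of the 4 groups. Hspd1, the large subunit of the mitochondrial chaperonin, lay at -0.72, -0.78 and -0.43 in MW naive (-0.64 ± 0.16, limma adjusted p = 0.0584), and its partner Hspe1 at 0.21, 0.08 and -0.04 (0.09 ± 0.12). Neither passed the test. The pair is transcribed in opposite directions from a shared promoter, of which 60 bases are shown with overlapping heat shock elements in capitals (RefSeq, GRCm38.p6, strand of Hspe1).
Hspe1 and Hspd1, chr1:55088038-55088097: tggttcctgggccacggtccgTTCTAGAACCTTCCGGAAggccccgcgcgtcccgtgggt

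Every call of this comparison ended when some single array was left out. That of Hspa5 ended without any 1 array other than MW naive 3 and WM IMP 1 (-1.23 to -0.92), that of Dnajb11 without WT naive 2 or 3 or MW naive 1 or 2 (-0.88 to -0.83), that of Dnajc3 without WT naive 1 or 3 or MW naive 1 or 2 (-0.88 to -0.69), that of Dnajc9 without WT naive 2 or 3 or MW naive 1 or 2 (-1.15 to -1.002), and that of Hspa4 without any 1 WT naive array or MW naive 1 or 2 (-0.94 to -0.77). In the count, none of the 75 was called without WT naive 3, MW naive 1 or MW naive 2, 1 without WT naive 2, 2 without WT naive 1, and 10 without WM IMP 1. The share of all genes called moved with it. It was 2.72% with all arrays, between 0.603% and 0.725% without 1 of the first 3 of these, 0.926% without WT naive 2, 0.75% without WT naive 1 and 4.98% without WM IMP 1.

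Among IMP cells, Hmox1, Hspa1a and Dnajc18 were lower in WM chimeras than in unmanipulated mice, 3 of 75 members (4%), and no member was called higher. Of all genes 1.27% were called, 0.372% higher and 0.897% lower. The median log2 difference was -0.06 over the members and 0.02 over all genes. This comparison shares its arrays with both comparisons of IMP and naive cells, so these are the same WT IMP and WM IMP values seen from the other side.

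Hmox1 was at -0.42, -0.06 and -0.08 in WM IMP against 0.88 and 0.94 in WT IMP, with a difference of -1.09 ± 0.14 (2.13-fold lower, limma adjusted p = 0.0076). Hspa1a was at 0.15, 0.15 and 0.40 against 0.96 and 1.23 (-0.87 ± 0.15, 1.82-fold lower, limma adjusted p = 0.0291). Dnajc18 was at 0.00 and -0.10 in WT IMP, above all 3 WM IMP arrays (-0.77 ± 0.15, limma adjusted p = 0.041). In WM IMP both Hspa1a and Hmox1 were thus nearer to the naive arrays than to WT IMP. With the hybridization level as a covariate all these calls were lost. The log2 differences were then -0.812 for Hmox1, -0.875 for Hspa1a and -0.439 for Dnajc18 (limma adjusted p = 0.257, 0.296 and 0.531). Of 21 other fits, the call held in 16 for Hmox1, 14 for Hspa1a and 5 for Dnajc18.

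Further members had differences that missed the threshold. Hspa1b was at -0.87, 0.22 and -0.22 in WM IMP against 1.45 and 2.38 in WT IMP (-2.21 ± 0.51, limma adjusted p = 0.0635), and 1 of its 3 probe sets, 1427126_at, passed by itself (-2.44 ± 0.41). Hsph1 was at -2.08, -1.52 and -1.80 against -0.47 and -0.15 (-1.49 ± 0.35, limma adjusted p = 0.0638). Hspd1 was at -0.93, -1.12 and -0.99 against -0.52 and 0.03 (-0.77 ± 0.18, limma adjusted p = 0.0638). In each of these 3 the groups did not overlap, which 3 arrays against 2 can do by chance. The share of all genes separated in this way was not counted. The Hsf1-inducible list, which also holds the mitochondrial Hspd1 and Hspe1, had 1 of 11 called, Hspa1a, and a median of -0.61. Hsp90aa1 and Hsp90ab1, of the same list, had 0.33 ± 0.34 and 0.09 ± 0.32.

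Immediate early genes, which respond within minutes to receptor signals and also to the handling of cells, moved beside these members. Of 11 such genes 4 were called lower in WM IMP than in WT IMP and none higher: Btg2 (-2.06 ± 0.33), Jun (-1.70 ± 0.19), Fos (-1.46 ± 0.28) and Egr1 (-1.10 ± 0.18). The mean over the list was 0.27 to 0.52 in WT IMP, -0.42 to -0.38 in WM IMP, -0.76 to -0.55 in MW naive and -0.07 to 0.07 in WT naive. In MW naive against WT naive 4 of the 11 were lower as well, Egr1, Btg2, Nr4a1 and Jun. The macrophage list stood at 0.70 to 1.01 in WM IMP against 1.32 to 1.42 in WT IMP, with C1qb called lower. The part of either list in the lower Hspa1a and Hmox1 was not tested.

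Of the other chaperone lists, Ppp1r15a, which ends the translational block of the stress response, and Sdf2l1 were lower (-1.05 ± 0.18 and -1.20 ± 0.25), 2 of 20 genes of the unfolded protein response. Cct5 was 1 of 8 TRiC subunits called (-0.89 ± 0.15). None of 14 genes of the cochaperone list was called with limma, and 4 had an unadjusted p under 0.05. The Hmox1 call ended without either WT IMP array (-1.12 to -1.07), that of Hspa1a without WT naive 1 or either WT IMP array (-0.999 to -0.73) and that of Dnajc18 without any 1 array other than WM IMP 1 and 2 (-0.82 to -0.71). The number of called members was 0 without either WT IMP array, 1 without WT naive 1 and 10 without WM IMP 2. Of all genes 0.235% were called without WT IMP 1, 0.0686% without WT IMP 2, 0.515% without WT naive 1 and 4.55% without WM IMP 2.

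Several roles gave no call at the level of genes in any of these comparisons. With limma these were the 4 DnaJ class A genes, which deliver substrates to Hsp70, the 5 BAG genes and the mitochondrial pair Hspd1 and Hspe1, and Hspa9, the Hsp70 of mitochondria, was not called either. An unadjusted p under 0.05 was seen for at most 3 of the class A genes, 2 of the BAG genes and both of the pair in a comparison. Single probe sets of class A genes did pass by themselves. For Dnaja4 1 of 3 was higher in WT IMP than WT naive, 1 higher in WM IMP than MW naive and 1 lower in MW naive than WT naive. For Dnaja2 2 of 4 were lower in MW naive than WT naive. For Dnaja3 1 of 3 was lower in MW naive and 1 in WT IMP, each against WT naive. Dnaja1 was at -1.10, -0.45 and -0.60 in WM IMP against -0.09 and 0.00 in WT IMP (-0.67 ± 0.19, limma adjusted p = 0.107). Bag1 had differences of -0.46 to 0.16 over the 4 comparisons of groups, and Hspa9 of -0.28 to -0.03. Hspb1, the widespread small heat shock protein, was at 0.65 and 0.44 in WT IMP and at 1.27, 0.47 and 0.43 in WM IMP, above all naive arrays of its own setting. Its differences of 0.54 ± 0.28 and 0.61 ± 0.25 did not pass (limma adjusted p = 0.37 and 0.143).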

How the data were processed

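Total RNA of 11 samples was labelled with biotin and read on single-channel oligonucleotide arrays. The deposited values are log2 values that the authors made with RMA, per the submitters' processing notes, relative to the WT naive mean. The log base is not given in the sources used here and was taken as the convention of RMA. The authors' gene table of 27800 rows, quantile normalized by its name, served as an alternative. It also assigned probe sets to genes: of 45101 probe sets (64 controls), 37504 with a single gene were averaged into 20404 genes, 17879 of them with symbols updated from RefSeq.

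The 4 groups were fitted together with limma 3.58.1 (lmFit, eBayes) in R 4.3.3 and 5 contrasts taken. Tables were handled in Python 3.11.15 with pandas 2.3.3 and numpy 2.4.6, and figures drawn with matplotlib 3.10.9. The members, lists and tests were chosen with earlier results of these data known. Named genes were, per comparison, the called members with the greatest differences (up to 10 in each direction), a fixed set of well-known members, and up to 4 called genes of each other list. Names outside the rule (such as Dnajb6, Creld2 and Edem1 between WM IMP and MW naive, probe sets and genes set beside them) were chosen after their values were seen. The motifs were chosen for what is known of these genes.

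Same-numbered samples of different groups did not deviate together (2 of 15 pairs over r = 0.1, range -0.28 to 0.19), so replicate numbers were not treated as pairs. Data were simulated for WM IMP against MW naive (5 simulations, 20404 genes, 200 of them changed). Of genes changed by a log2 of 1, 60% to 80% were recovered, and 96% to 99% at 2. Of the calls, 2.86% to 6.02% were false. The simulated noise was normal and independent between genes and arrays. It held none of the differences in array controls seen here, so these rates may not hold for the real arrays. Alternatives were the other gene table, the median of probe sets, centring, blocks and covariates for array controls, array weights, 2-group fits and leaving out each array. Fitting each probe set by itself and the 3-unit heat shock element were added after the data were seen. A further marker of the sort is not reported here.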

Additional observations from a re-analysis of the deposited data

How the results depend on the processing

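No alternative at the level of genes turned the direction of a called member. The counts of the alternatives below can hold members that are not among the reported calls. With the replicate block, 4 members were called between WT IMP and WT naive (7 as reported) and 6 between WM IMP and MW naive (10 as reported), beside 6.07% and 11.4% of all genes (7.66% and 13.1% as reported). On the 7 arrays with low poly-A controls the counts were 0, 3, 0 and 0 in the order of the report (7, 10, 5 and 3 as reported), beside 2.34%, 5.69%, 0.0735% and 0.0441% of all genes, and fewer arrays enter that fit. With the hybridization level as a covariate they were 3 for WM IMP against MW naive, 3 for MW naive against WT naive and 0 for WM IMP against WT IMP (all genes 7.75%, 2.38% and 0.0294%). With the Gapdh 5′ minus 3′ difference they were 3, 5 and 0 for the first 3 comparisons (all genes 5%, 10.1% and 0.0686%). Array weights gave 17 for WT IMP against WT naive and 14 for MW naive against WT naive (all genes 15% and 10%, from 7.66% and 2.72%). Fits to the 2 groups alone gave 4, 9 and 0 for the last 3 comparisons (all genes 7.5%, 4.55% and 0.0392%). For MW naive against WT naive the median of probe sets gave 3 and centring 8 (all genes 2.22% and 2.99%). Leaving out 1 array gave 2 to 10, 4 to 10, 0 to 10 and 0 to 10 (all genes 3.44% to 10.1%, 8.88% to 14.1%, 0.603% to 4.98% and 0.0686% to 4.55%), and 0 for the interaction throughout. The cause was not tested. Single probe sets, an alternative added after seeing the data, had the opposite sign to 4 calls: 1447824_x_at of Hspa5 (0.64), 1419162_s_at of Dnajc3 (0.28) and 1440575_at of Hspa4 (0.009) for MW naive against WT naive, and 1431215_at of Dnajc6 (0.10) for WM IMP against MW naive. Only the sign was compared here, however small the difference and whether or not the probe set passed by itself. The values hold no brightness, so a probe set near background cannot be told from one that is measured well.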
